A study of Mus musculus with 6 samples.

Results

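The genes for the protein part of the mitochondrial ribosome were examined in the kidney cortex of 2 groups of mice. One, called PT-I-PpoI (3 libraries), expresses the endonuclease I-PpoI specifically in epithelial cells of the proximal tubule, and the other is wild type (3 libraries). I-PpoI is a homing endonuclease and leaves double-strand breaks at a long, rare target sequence, which occurs in the nuclear ribosomal DNA. The promoter that drives the transgene, the strain and the age and sex of the mice are not given in the sources used here, and no label says whether libraries are separate mice. The p-values thus measure only how far these libraries spread, which may be technical. Members were chosen by symbol alone (Mrpl or Mrps followed by a number and at most 1 lower-case letter), which took 77 of the 24421 genes in the deposited count table. All 77 passed the filter on low counts, with 256 to 5335 read pairs per gene and library, so no member was left out of the test.

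Mitochondria keep their own ribosomes, which translate the few messenger RNAs of the mitochondrial genome into core subunits of the respiratory chain and the ATP synthase. The ribosomal RNAs are encoded in the mitochondrion, but every ribosomal protein is encoded in the nucleus, made in the cytosol and imported. Some of these proteins descend from bacterial ribosomal proteins and others have no bacterial counterpart. Proximal tubule and thick ascending limb cells are rich in mitochondria because solute transport there runs on oxidative phosphorylation. Names do not map cleanly onto subunits. Of the 77 genes, 50 encode proteins of the large subunit, which holds the catalytic centre, and 26 proteins of the small subunit, which reads the message. Mrps30 and Mrps18a are named as small subunit genes but their proteins sit in the large subunit and are counted there. Mrps36 is counted apart, since its protein is now assigned to the 2-oxoglutarate dehydrogenase complex.

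Libraries held 13.6 to 20.9 M counted read pairs. Library names are written in 2 ways: PT-I-PpoI replicate 3 and wild type replicates 2 and 3 carry a hyphen ahead of their last digit, and the other 3 libraries do not. The labels give this name form no meaning, and differences within each form stand beside the pooled values where a result turns on them. For names that lack the hyphen, wild type is a single library, replicate 1. The cortex label was checked against marker genes: 12 proximal tubule markers summed to 10091 to 17077 CPM (read counts scaled to a common library total) per library, 8 thick ascending limb markers to 5359 to 7831 CPM and 4 podocyte markers to 299 to 410 CPM. Markers of deeper or later segments were present too, with sums of 604 to 982 CPM over 9 collecting duct markers and 72.9 to 261 CPM over 4 inner medulla markers. Slc14a2 and Slc5a3, which overlaps Mrps6, made up nearly all of the inner medulla sum. In wild type replicate 1, where that sum was 72.9 CPM, Slc5a3 alone was at 66.8 CPM.

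Mitochondrial ribosomal protein genes were at nearly the same level in both groups, with Mrps6 as the exception. The log2 fold changes of the other 76 members (PT-I-PpoI over wild type) lay between -0.14 and 0.23. Mrps6, a small subunit gene whose bacterial counterpart S6 pairs with S18 on the platform of the subunit, had a log2 fold change of 0.83, or 1.78-fold. With edgeR's quasi-likelihood test, adjusted by the Benjamini-Hochberg method across the 13977 genes that passed the filter, 0 members were called higher and 0 lower at an adjusted p under 0.05, where 19 genes were called higher (0.136%) and 0 lower (0%). DESeq2 called 1 member higher, Mrps6, and 0 lower, against 0.952% and 0.436% of all genes. At an unadjusted p under 0.05 edgeR gave 5 members higher and 0 lower (6.42% and 5.61% of all genes).

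The intervals of these estimates were narrow, and they cover the spread between these libraries only. For 76 of 77 members the 95% interval of the fold change lay inside 1.5-fold in either direction, which held for 66% of all genes tested. Among the 7070 genes with a mean CPM within the members' own range (18.3 to 254 CPM) the share was 89.0%. The median standard error (SE) of the log2 fold change was 0.083 over the members, 0.096 over genes of like abundance and 0.125 over all genes. The member left out of that count was Mrps6, with an interval of 0.53 to 1.13 on the log2 scale.

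**Figure D1:**
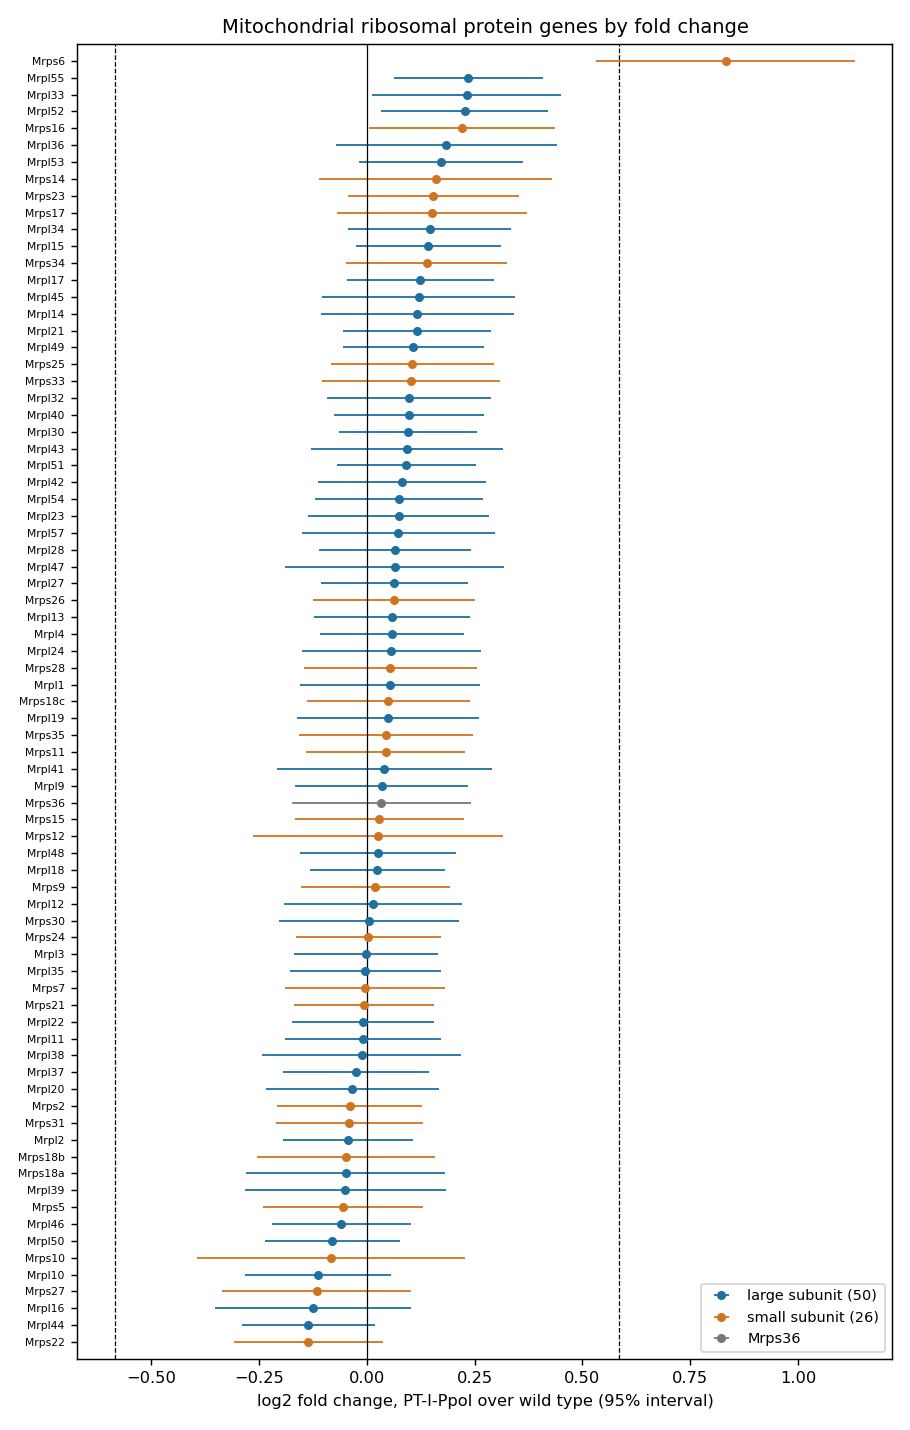
Log2 fold change (PT-I-PpoI over wild type, 3 libraries each) of the 77 members with 95% intervals from edgeR's quasi-likelihood fit; dashed lines mark 1.5-fold in either direction and colours mark the subunit. The intervals of 76 members stay between the dashed lines, and that of Mrps6 runs from 0.53 to 1.13.

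Mrps6 (chromosome 16, 92058336 to 92112227, plus strand, mm10) was at 138, 166 and 115 CPM in PT-I-PpoI replicates 1, 2 and 3 and at 77.4, 85.4 and 73.0 CPM in wild type replicates 1, 2 and 3. The lowest PT-I-PpoI library, replicate 3, was above the highest wild type library. The log2 fold change of 0.83 ± 0.13 (SE) missed the threshold in the fit with the groups alone (edgeR adjusted p = 0.0708) and passed it once name form was a term (0.76 ± 0.12, edgeR adjusted p = 0.0452). That fit called 1 member higher and 0 lower, against 0.351% and 0.107% of all genes. The log2 difference was 0.97 among names that lack a hyphen and 0.54 among hyphenated ones. The edgeR adjusted p moved with single libraries: it was 0.00736 without PT-I-PpoI replicate 3 and 0.157 to 0.424 without any 1 of the other 5, while the log2 fold change stayed between 0.69 and 0.96. Calls over all genes moved as well, with 625 genes called without PT-I-PpoI replicate 3 and 0 to 9 without any 1 of the other 5.

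Mrps6 shares its 5′ end with Slc5a3, the sodium-coupled myo-inositol transporter that cells use to take up an organic osmolyte. In the deposited annotation both genes lie on the plus strand and their starts are 14 bases apart. The first exon of Mrps6 (92058336 to 92058480, 145 bases) lies wholly inside the first exon of Slc5a3 (92058322 to 92058480). Slc5a3 continues with an exon of 10754 bases at 92076720 to 92087473, within the first intron of Mrps6, whose own later exons are at 92099594 to 92099733 and 92111733 to 92112227. Read pairs within the shared exon overlap both genes, and the header gives no option to count such pairs for either, which leaves 635 exonic bases that belong to Mrps6 alone. How transcripts of each gene add to the other's count was not tested.

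The sequence upstream of Mrps6 is printed because the annotated starts of both genes lie at its end, and that of Mrpl17, a large subunit gene, because it is 1 of 2 members, with Mrpl32, whose 250 bases upstream of the start hold 3 of the 4 motifs marked in capitals. Both come from RefSeq (GRCm38.p6) and hold the 250 bases before the annotated start, chr16:92058086-92058335 on the plus strand and chr7:105811088-105811337 on the minus strand. Capitals mark matches on either strand to GGGCGG (the Sp1 box), CCGGAAG (the ETS core, bound by GABP), GCATGCGC (the core of the NRF1 site) or AAGATGGC (the YY1 core).
Mrps6: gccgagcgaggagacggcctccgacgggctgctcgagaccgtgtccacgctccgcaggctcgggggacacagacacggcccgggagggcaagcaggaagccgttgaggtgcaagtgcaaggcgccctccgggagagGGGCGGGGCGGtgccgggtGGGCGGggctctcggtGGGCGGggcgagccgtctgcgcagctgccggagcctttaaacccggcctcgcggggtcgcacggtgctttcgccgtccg
Mrpl17: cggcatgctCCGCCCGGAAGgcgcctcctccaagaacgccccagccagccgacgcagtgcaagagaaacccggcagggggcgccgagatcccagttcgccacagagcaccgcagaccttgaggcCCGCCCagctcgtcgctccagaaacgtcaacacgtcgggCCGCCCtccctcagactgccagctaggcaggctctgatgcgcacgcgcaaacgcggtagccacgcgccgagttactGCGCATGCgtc
The window upstream of Mrps6 holds 4 matches to GGGCGG, of which the leftmost pair share a base, and no match to the other motifs. That of Mrpl17 holds 3 matches to the Sp1 box, 1 to the ETS core, which overlaps an Sp1 box, and 1 to the NRF1 core.

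Slc5a3 was at 117, 121 and 177 CPM in PT-I-PpoI replicates 1, 2 and 3 and at 66.8, 108 and 104 CPM in wild type replicates 1, 2 and 3. Its groups did not overlap either, although PT-I-PpoI replicate 1 lay close to the higher wild type libraries. The log2 fold change was 0.57 ± 0.21 with the groups alone (edgeR adjusted p = 0.362) and 0.78 ± 0.07 in the fit that includes name form (edgeR adjusted p = 0.0106). The ratio of Slc5a3 to Mrps6 counts followed the name form and not the group. It was 0.84, 0.73 and 0.86 in the 3 libraries without a hyphen and 1.54, 1.27 and 1.43 in the 3 with one. Between forms Slc5a3 was higher in hyphenated libraries by 0.62 on the log2 scale (edgeR adjusted p = 0.00296), and Mrps6 was at -0.19 (edgeR adjusted p = 0.448). The sum of both counts was 255, 287 and 292 CPM in PT-I-PpoI against 144, 194 and 178 CPM in wild type, or 278 ± 20.3 against 172 ± 25.2 CPM (SD, n = 3 each). The sum was formed after the values had been seen and is given with no test.

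**Figure D2:**
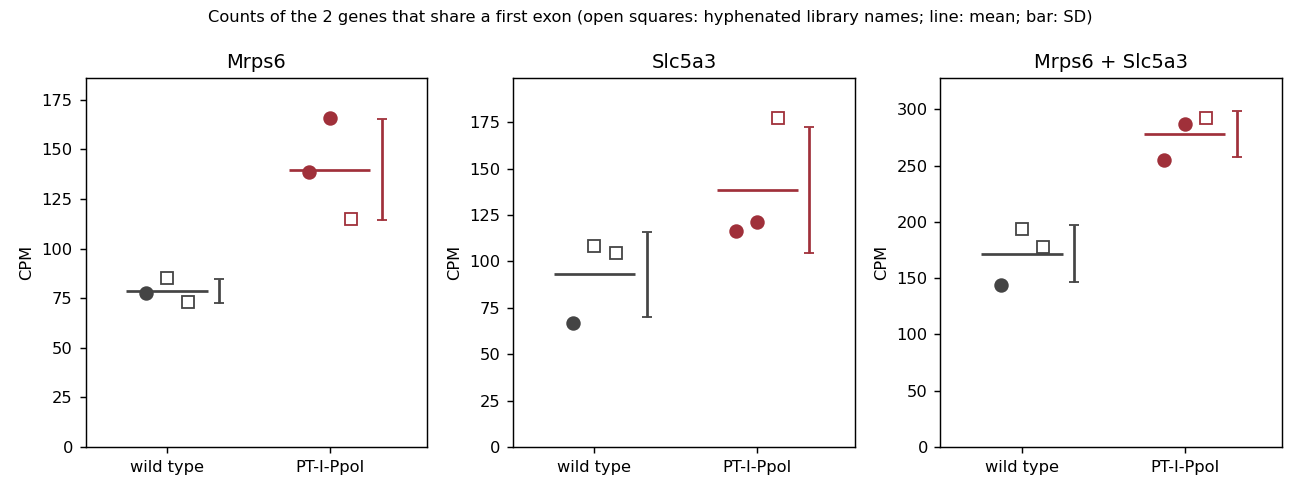
Level (CPM) of Mrps6, of Slc5a3 and of both together in each library; lines are group means, bars the SD over 3 libraries, and open squares mark hyphenated library names. Mrps6 is highest in the PT-I-PpoI libraries without a hyphen and Slc5a3 in the PT-I-PpoI library with one, and the PT-I-PpoI sums (255 to 292 CPM) lie above those of wild type (144 to 194 CPM).

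The direction of the group difference varied from one nephron segment to the next among marker genes, and a minority passed the edgeR test. All 8 thick ascending limb markers had fold changes above 0, with 2 called higher by edgeR and 5 by DESeq2, and their summed level ran from 7604 to 7831 CPM in the PT-I-PpoI libraries, against 5359 to 6130 CPM for wild type. Of 9 collecting duct markers 9 were above 0, with 2 called higher by edgeR and 4 by DESeq2, and sums of 782 to 982 against 604 to 668 CPM. Among 12 proximal tubule markers 1 was above 0, at summed levels of 10091 to 14101 against 12716 to 17077 CPM. For these edgeR called 0 (5 were lower at an unadjusted p under 0.05), the fit with name form called 1 lower (Atp11a) and DESeq2 called 3 lower (Slc22a30, Slc7a13 and Atp11a). The 4 distal convoluted tubule markers were all below 0, with a median log2 fold change of -0.22, and 0 were called by edgeR (1 lower at an unadjusted p under 0.05) or by DESeq2. Of 4 markers set for the inner medulla, only Slc5a3 and Slc14a2 could be tested, and both were above 0. Of these, 0 were called by edgeR, 2 with name form as a term and 1 by DESeq2 (Slc14a2). Slc14a2, the urea transporter, was at 103, 84.1 and 83.8 against 6.07, 28.6 and 20.8 CPM, Aqp5 averaged 0.125 and 0.158 CPM, and Akr1b3 was at 0 in every library. Counting used no multi-mapping option, and whether that left Akr1b3 without counts was not tested. The part of these markers in the Mrps6 result was not tested. In bulk tissue a different share of a cell type in the piece taken, whatever its source, cannot be told apart from a different RNA level per cell.

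After Mrps6 the smallest p-values belonged to 4 members with small positive differences, none of which passed after adjustment. Mrpl55 (chromosome 11, 59202486 to 59206135), which encodes a large subunit protein, was at 34.7, 33.2 and 33.3 CPM in PT-I-PpoI against 28.1, 28.2 and 29.7 CPM in wild type. The groups did not overlap, and the log2 fold change was 0.23 ± 0.08 (edgeR adjusted p = 0.318). Mrpl52 (chromosome 14, 54426909 to 54429750), a large subunit gene with no bacterial counterpart, was at 42.4, 47.8 and 44.8 against 37.3, 41.5 and 36.8 CPM. Its log2 fold change was 0.23 ± 0.08 (edgeR adjusted p = 0.365), again without overlap. Mrpl33 (chromosome 5, 31613951 to 31622644), the counterpart of bacterial L33, was at 43.8, 47.2 and 41.3 against 41.8, 34.8 and 36.0 CPM. Here wild type replicate 1 lay above PT-I-PpoI replicate 3 (0.23 ± 0.10, edgeR adjusted p = 0.399). Mrps16 (chromosome 14, 20391231 to 20393555), the counterpart of bacterial S16, was at 43.7, 54.1 and 45.9 against 41.8, 39.6 and 41.8 CPM. PT-I-PpoI replicate 2 stood above the rest (0.22 ± 0.10, edgeR adjusted p = 0.4103).

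Differences in the other direction were smaller. Mrpl44 (chromosome 1, 79776018 to 79781445), whose protein carries a ribonuclease III-like fold, was at 50.4, 49.2 and 49.7 CPM in PT-I-PpoI against 53.3, 55.3 and 55.3 CPM in wild type, or -0.14 ± 0.07 on the log2 scale (edgeR adjusted p = 0.454). Mrps22 (chromosome 9, 98588730 to 98601679), a small subunit gene with no bacterial counterpart that is mutated in a human oxidative phosphorylation deficiency, was at 28.3, 27.7 and 27.2 against 30.6, 31.0 and 29.8 CPM. Its log2 fold change was -0.14 ± 0.08 (edgeR adjusted p = 0.485). Mrpl50, at 110, 116 and 113 against 121, 119 and 118 CPM, was the third member whose PT-I-PpoI libraries all lay below wild type. In all, 11 members were higher and 3 lower without overlap between the groups, beside 9.23% and 7.74% of all genes tested. The other members higher without overlap were large subunit genes, Mrpl53 (log2 fold change 0.17), Mrpl15 (0.14), Mrpl21 (0.12) and Mrpl49 (0.11), and 3 smaller ones named after their values were seen, Mrpl40 (0.10), Mrpl30 (0.10) and Mrpl51 (0.09). Groups overlapped for Mrps23 (0.15) and, among members below 0, for Mrps27 (-0.12), Mrpl16 (-0.12), Mrpl10 (-0.11), Mrpl46 (-0.06) and Mrps5 (-0.05), which come next by p.

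**Figure D3:**
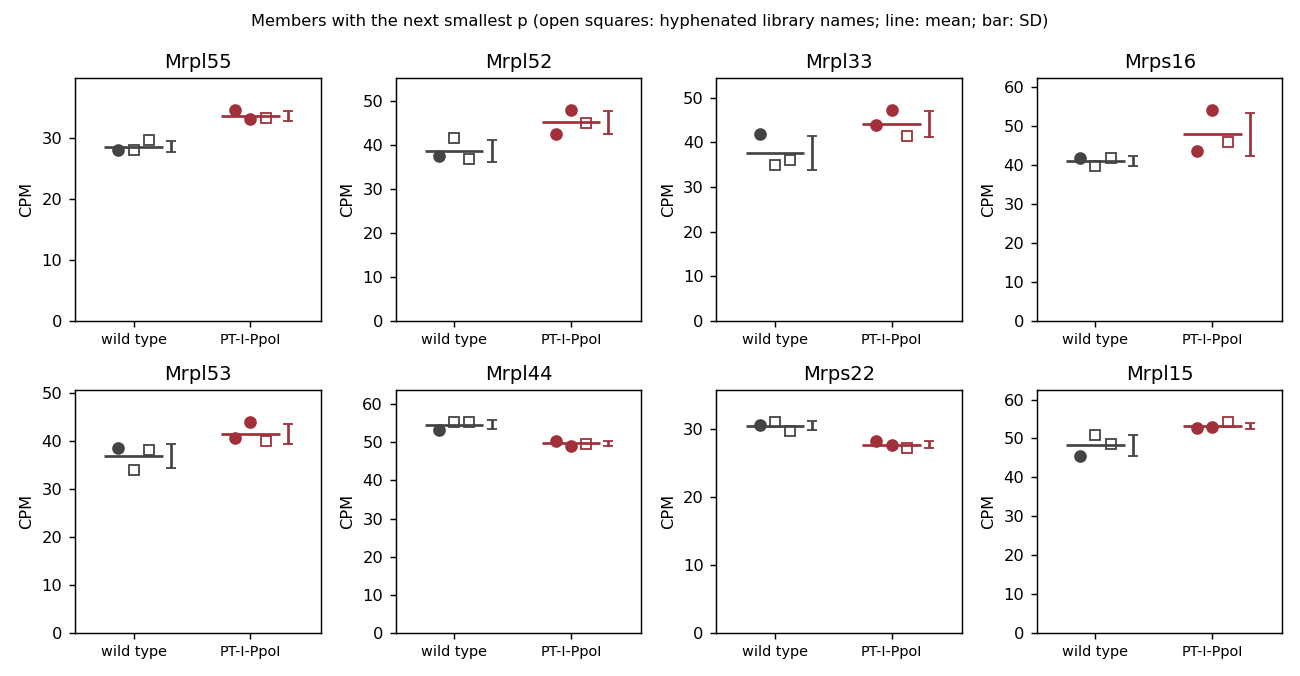
Level (CPM) in each library of the 8 members with the smallest p after Mrps6; lines are group means, bars the SD over 3 libraries, and open squares mark hyphenated library names. The axes start at 0, and 7 of the 8 show no overlap between the groups, Mrpl33 being the exception.

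Large and small subunit genes had similar fold changes, with no test of the difference made. Of 50 large subunit genes 35 lay above 0, and their log2 fold changes had a median of 0.06 and a range of -0.14 to 0.23. For the 26 small subunit genes it was 17, with a median of 0.04 and a range of -0.14 to 0.83. Members were also split by whether the list used here gives them a bacterial counterpart, which was not checked against protein sequences. The medians were 0.06 over 30 large subunit genes listed with a counterpart and 0.06 over 20 listed without one. For the small subunit they were 0.03 over 16 listed with a counterpart and 0.05 over 10 listed without. Over all 77 members 53 were above 0 and the median was 0.05, where 50.1% of all genes tested were above 0 and their median was 0.0004. Of the 7070 genes of like abundance 3132 were above 0, with a median of -0.02. Without PT-I-PpoI replicate 2 the members' median was 0.02. Among names that lack a hyphen it was 0.08, and among hyphenated ones 0.02. The 3 genes named Mrps18 were picked out for their shared name. The list gives a bacterial counterpart for Mrps18c only, and this does not show that Mrps18a and Mrps18b lack bacterial ancestry. Mrps18a had a log2 fold change of -0.05 ± 0.10, Mrps18b one of -0.05 ± 0.09 and Mrps18c one of 0.05 ± 0.08.

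Summed over the 77 members, expression was 4732, 4971 and 4805 CPM in PT-I-PpoI replicates 1, 2 and 3 and 4549, 4710 and 4696 CPM in wild type replicates 1, 2 and 3. The means were 4836 ± 122 and 4652 ± 89.2 CPM (SD, n = 3 each), which is 3.96% higher in PT-I-PpoI, and the lowest PT-I-PpoI library stood just above the highest wild type library. Without Mrps6 the difference was 2.69% and the groups overlapped, at 4594 to 4805 against 4472 to 4625 CPM. The small subunit sum was 6.94% higher with Mrps6 and 2.66% higher without it, and the large subunit sum 2.71% higher. Library by library, PT-I-PpoI replicate 2 held the highest value of 30 members and wild type replicate 1 the lowest value of 22.

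**Figure D4:**
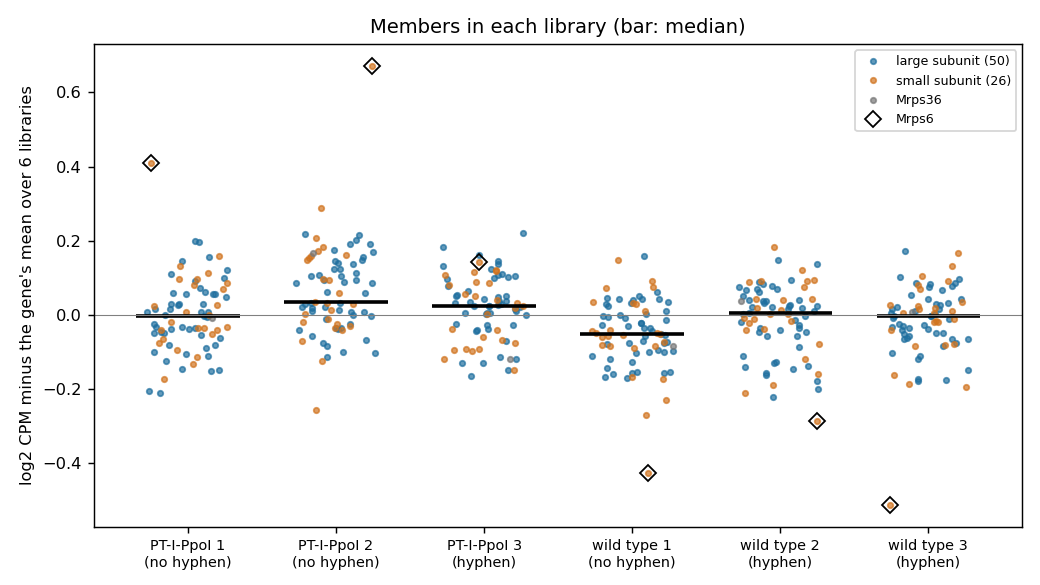
Log2 CPM of each member minus its own mean over the 6 libraries, by library, coloured by subunit, with the library median as a bar and Mrps6 as a diamond; positions within a library are spread at random. Medians lie between -0.05 (wild type replicate 1) and 0.03 (PT-I-PpoI replicate 2), and Mrps6 stands outside the other members in 5 of the 6 libraries, PT-I-PpoI replicate 3 being the exception.

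Between name forms no member was called. In the fit with group and form, 0 of 77 members differed between forms by edgeR, where 428 of 13977 genes (3.06%) did. At an unadjusted p under 0.05 there were 6 members higher and 4 lower in hyphenated libraries, against 18.8% of all genes in either direction. Of 3 members picked after their values were seen, Mrps10, a small subunit gene, was at 0.31 on the log2 scale (edgeR adjusted p = 0.134). Mrpl41 was at 0.26 (edgeR adjusted p = 0.105) and Mrpl36 at -0.27 (edgeR adjusted p = 0.108).

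Levels per exon length, in RPKM (CPM divided by exon kilobases), covered a wide range that did not follow the subunits. The mean over 6 libraries was highest for Mrpl12, the counterpart of the bacterial stalk protein L7/L12 that recruits translation factors, at 267 ± 16.1 RPKM (SD over 6 libraries, range 238 to 280). Mrps21 followed at 230 ± 7.20 (219 to 236), and Mrpl42 was the third at 172 ± 11.8 (162 to 195). Mrpl20, at 148 ± 9.97, and Mrps6, at 140 ± 47.9, overlapped. Counted over the 635 bases outside the shared exon, Mrps6 would be at 172 RPKM, and it had the largest range among the 77 genes, 93.6 to 213 RPKM. Mrps7, the counterpart of bacterial S7, was the third small subunit gene in the order, at 87.8 ± 4.52.

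At the low end were Mrpl19 (4.44 ± 0.23 RPKM), Mrps25 (6.65 ± 0.43), Mrpl1 (7.58 ± 0.51) and Mrpl17 (9.05 ± 0.56), whose annotated exons cover 5000, 6065, 4188 and 6712 bases. Exons of Mrpl19 and Mrps25 overlap those of Gcfc2 and Nr2c2, and no option counted read pairs that overlap both genes. Their full exon lengths were still used, so the levels of Mrpl19 and Mrps25 may be too low, which was not tested. Per library rather than per length, Mrpl17 was not low: it averaged 63.3 CPM in PT-I-PpoI against 58.1 CPM in wild type, above the members' median of 55.2 CPM. Mrps27 and Mrps22 were the other low small subunit genes, at 16.8 ± 1.38 and 23.9 ± 1.32 RPKM. The median was 52.7 RPKM over large subunit genes and 42.4 RPKM over small subunit genes.

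**Figure D5:**
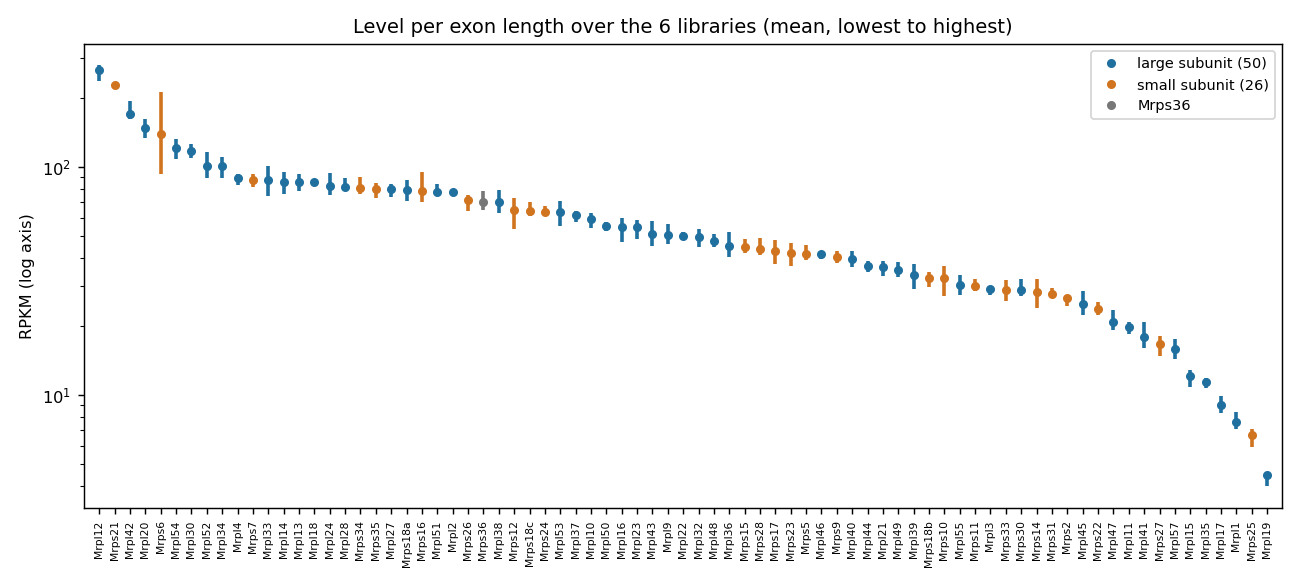
Mean RPKM (log axis) of each member over the 6 libraries in falling order, with the lowest and highest library as a bar and colours for the subunit. Levels run from 267 RPKM for Mrpl12 to 4.44 RPKM for Mrpl19, large and small subunit genes are interleaved, and the bar of Mrps6 is the longest.

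Several features of position and promoter differed in frequency between the members and all genes. All genes here include those that did not pass the filter on low counts, which every member passed. Frequencies among the genes tested alone were not computed. The members lie on 17 chromosomes. For 28 of 77 (36.4%) the annotated start was within 1000 bases of the start of a gene on the opposite strand, an arrangement found for 11.9% of 24277 genes in the table. In 1 such pair both are members: Mrpl46 and Mrps11 start 42 bases apart, and their log2 fold changes were -0.06 ± 0.07 and 0.04 ± 0.08. Among the other partners, Peo1 and Sars2 were picked for their known roles in mitochondrial gene expression. The partners were not sorted by function, so no share with such a role is given. Mrpl43 starts 116 bases from Peo1, the mitochondrial DNA helicase Twinkle, and Mrps12, whose protein helps to monitor decoding, starts 187 bases from Sars2, the mitochondrial seryl-tRNA synthetase. The median log2 fold change was 0.06 over the 28 paired members and 0.05 over the other 49.

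Promoter sequences (RefSeq, GRCm38.p6, 250 bases before to 50 after the start) were found for 68 members, with 74 promoters among them. The ETS core CCGGAAG occurred in 33.8% of these and in 8.86% of all 32851 promoters of that length. For the NRF1 core GCATGCGC the shares were 10.8% and 2.71%, and for the YY1 core AAGATGGC 16.2% and 2.75%. GGGCGG was in 52.7% against 35.7%, and the TATA box TATAAA in 6.76% against 13.6%. The E-box CACGTG (9.46% against 7.15%) and the CCAAT box (40.5% against 37.4%) differed less. Both strands were searched, motifs may overlap, and the median GC content was 58.5% in member promoters and 52.7% in all. A match is a run of letters and not a shown binding site.

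Exons of 10 members overlap exons of another gene, and for 7 of them that gene is on the opposite strand: Mrpl19 (Gcfc2), Mrpl24 (Rrnad1), Mrpl41 (Dph7), Mrpl48 (Rab6a), Mrpl49 (Syvn1), Mrps25 (Nr2c2) and Mrps27 (6430562O15Rik). Counting did not use strand, so read pairs within such an overlap fall on both genes, and no option counted them for either. How many pairs this left out was not tested. On the same strand, overlap summed over pairs of exon entries was 14 bases for Mrpl53 (Ccdc142) and 70 bases for Mrps23 (Cuedc1). Such a sum can count a base more than once where exon entries repeat. For Mrps6 the overlap was the 145 bases of its first exon.

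Genes that build, feed or regulate the mitochondrial ribosome showed no call in either direction. In none of 8 lists did a gene pass over all genes tested, by edgeR or by DESeq2. Calls were rare among all genes too, at 0.136% higher and 0% lower by edgeR and 0.952% and 0.436% by DESeq2. At an unadjusted edgeR p under 0.05 a list held 2 genes at most, where 12% of all genes passed in either direction. Of 6 ribosomal proteins with other names, Chchd1, a small subunit protein, was at 51.0, 54.1 and 50.9 against 47.7, 40.1 and 40.5 CPM without overlap (log2 fold change 0.28 ± 0.09, edgeR adjusted p = 0.311), and the median was 0.03. Next by p was Aurkaip1, another small subunit protein, at 0.20 ± 0.09. Over 16 translation factors the median was -0.01. The smallest p was that of Gfm2, which splits ribosomes after termination, at 59.1, 60.9 and 65.0 against 71.1, 68.7 and 70.5 CPM (-0.19 ± 0.07, edgeR adjusted p = 0.376), followed by Gatb, of the enzyme that makes glutaminyl-tRNA, at -0.15 ± 0.08. Over 27 assembly and ribosomal RNA modification genes the median was -0.04, and Rpusd4, a pseudouridine synthase, was at 0.31 ± 0.14 (edgeR adjusted p = 0.4135). Yme1l1, on the same list although it encodes an inner membrane protease, was at -0.28 ± 0.14.

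The 17 mitochondrial aminoacyl-tRNA synthetases, which charge the organelle's transfer RNAs, had a median of -0.07, with 12 below 0. Cars2 was at 29.1, 28.2 and 27.9 against 32.6, 33.3 and 33.3 CPM (-0.22 ± 0.07, edgeR adjusted p = 0.3295), and Rars2 at 47.8, 45.5 and 48.6 against 50.2, 58.8 and 58.4 CPM (-0.24 ± 0.09, edgeR adjusted p = 0.352). In both the PT-I-PpoI libraries lay below wild type. Transcription and replication genes of mitochondrial DNA had a median of -0.01 over 12 genes, among them Tfam, which packages that DNA (0.01 ± 0.10, chosen after its value was seen). The smallest p there were those of Ssbp1, which coats single-stranded DNA (0.15 ± 0.09), and Tfb2m, which opens promoters (-0.11 ± 0.09). Regulators of nuclear genes for mitochondria had a median of 0.05 over 12 genes. Myc was at 0.74 ± 0.33 (edgeR adjusted p = 0.421) and Ppargc1a, the coactivator PGC-1 alpha, at 0.19 ± 0.09 (edgeR adjusted p = 0.4498).

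The list of mitochondrial proteases and chaperones, which also holds the transcription factor gene Ddit3, had a median of -0.10 over 13 genes. Ddit3, the stress transcription factor CHOP, was at 13.8, 16.3 and 14.0 against 11.5, 12.1 and 10.4 CPM (0.38 ± 0.12, edgeR adjusted p = 0.307), and Hspd1, the chaperonin HSP60, at 630, 632 and 670.1 against 711, 724 and 781 CPM (-0.20 ± 0.09, edgeR adjusted p = 0.4135). Neither overlapped between the groups. Genes of mitochondrial content had a median of 0.03 over 11 genes. Vdac1, the main outer membrane channel, was at 708, 700.2 and 814 against 822, 895 and 899.6 CPM (-0.24 ± 0.10, edgeR adjusted p = 0.3985). Vdac2, its paralogue, was at 0.11 ± 0.08.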

How the data were processed

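Per the labels' protocols, RNA libraries were made with a stranded mRNA kit, read as pairs and mapped with HISAT2. Per the file headers, the authors counted read pairs over exons with featureCounts 1.5.2 on a UCSC mm10 annotation, with no strand, multi-mapping or multi-overlap option. The labels' protocols name mm9, and coordinates are given as mm10, as in the file. The authors also deposited regularized log2 (rlog) values, used only for an alternative.

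The counts of 13977 genes kept by edgeR's expression filter (minimum count 10) were scaled by TMM and tested with edgeR's quasi-likelihood test (R 4.3.3, edgeR 4.0.16), two-sided, adjusted by Benjamini-Hochberg over all genes at 0.05. The procedure was tested on simulated data. CPM use TMM-adjusted totals, and within-form differences use log2(CPM + 0.1). The members, lists and rules were chosen with earlier results of these data known. The rule names members called, up to 8 per direction by p or by size without overlap, the 3 highest and lowest per subunit in RPKM, those with overlapping exons, and the 2 smallest p per pathway list; genes outside it are marked in the text. Motifs were chosen after the files had been seen. Alternatives were other scalings, filters and tools (DESeq2 1.42.0, limma 3.58.1), the name form or replicate number as a term, and leaving out each library. Libraries with the same replicate number in their titles correlated at 0.22, -0.13 and 0.16, so these numbers were not taken as pairs. The digits in the library names differ from them for some libraries and were not tried as pairs.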

Additional observations from a re-analysis of the deposited data

How the results depend on the processing

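With 3 libraries per group, small differences have little power, and intervals cover the spread between these libraries only. Of the 18 members named for their test, 17 gave the same direction and no call under all 15 alternatives, with a largest log2 fold change of 0.32 and a smallest adjusted p of 0.121. Mrps6 kept its direction. It was called, as the 1 member, in the unfiltered fit (0.83, adjusted p = 0.0278), by DESeq2 (0.83, adjusted p = 7.21e-06), with the name form as a term (0.76, adjusted p = 0.0452) and with the replicate number as a block (0.82, adjusted p = 0.0327), a fit that called 40 genes in all against 19 without the block. Other scalings, a filter at 1 CPM (3 libraries or more) and limma-voom left it uncalled (adjusted p 0.066 to 0.0746), as did limma on the rlog values, where its log2 fold change was 0.49. Leaving out 1 library gave 0 to 1 members called, a median log2 fold change of 0.0212 to 0.0589 over members, 0.0218 to 0.0657 over the large subunit and 0.00426 to 0.0624 over the small subunit, and 0 to 2 genes called in the pathway lists, the 2 without PT-I-PpoI replicate 3, where 625 genes were called in all. On the rlog values the large subunit median was 0.0305. Summed member levels differed by 114 to 250 CPM under every alternative run, and 0 members were called between name forms in any of theirs. No call of another member changed with the replicate block.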
